A study of Mus musculus with 4 samples.

Results

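The regions described here are RNA polymerase II (Pol II) peaks at genes for long noncoding RNAs (lncRNAs) that lie away from protein-coding genes, in primary mouse osteoblasts exposed to OSS_128167. They were chosen by being listed as peaks in the OSS_128167 Pol II library, by their length and by their position, so their presence in that list is not a finding. A member is below 1000 bp long, sits on chromosomes 1 to 19, touches an lncRNA gene or its 1000 bp flanks, and is more than 5000 bp from any protein-coding gene of the RefSeq table of GRCm38. The rule found 2059 members among the 40748 peaks of that list, or 5.23% (exact 95% interval 5.01 to 5.46) of its 39355 autosomal peaks below 1000 bp. The 2 peak lists of the series held 42442 peaks together. The members lay at 1337 lncRNA genes, of 8501 autosomal lncRNA genes with any sequence beyond 5000 bp from coding genes (15.7%, interval 14.96 to 16.5).

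Chromatin immunoprecipitation sequencing recovers the DNA bound to a protein, here with an antibody to Pol II, and a peak is an interval where reads pile up over background. The cells were marrow-derived stromal cells of young mice, passaged and then grown in osteogenic medium. OSS_128167 inhibits SIRT6, a chromatin deacylase. There were 4 libraries, namely 1 Pol II library and 1 input library labelled WT osteoblasts, and 1 of each labelled OSS_128167 treated. "Untreated" rests on the WT titles, since the treatment field names the inhibitor for all 4 samples. The peak list of the OSS_128167 library is itself named after SIRT6, not after the inhibitor. The labels give no dose, exposure time, strain or number of animals, and the titles of the treated libraries do not say WT. With 1 Pol II library per condition, no difference between conditions was tested. The inputs were not analysed as samples of their own. Peaks in or near 7 of 12 osteoblast marker genes stood in the OSS_128167 list, including Runx2, Sp7, Col1a1 and Sparc, where 37.7% of all protein-coding genes had a peak in or within 1 kb in that list, and 2 of 12 in the untreated list, where 2.3% of coding genes had one. None was listed at Alpl, Bglap, Ibsp, Spp1 or Dmp1, and 3 of 6 macrophage and osteoclast markers and 2 of 3 endothelial markers also had an OSS_128167 peak. The part of other cells in the member peaks was not tested.

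Many lncRNAs are made by Pol II, capped and spliced like messenger RNAs, but act as RNA. Some stay in the nucleus and build bodies such as paraspeckles, some act at the locus where they are made, and others are precursors of small RNAs. In microRNA host genes, Drosha cuts a hairpin out of the nascent host transcript, and the mature microRNA pairs with messenger RNAs mainly through its seed, bases 2 to 8. Pol II on such a host therefore marks the transcription unit that can supply the microRNA, although a peak gives neither transcript strand nor RNA level.

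The member peak of highest fold enrichment covered a microRNA hairpin, that of Mir125b-1 in the host gene Mir100hg. The microRNAs of Mir100hg, of Gm49890 and of Dleu2 are printed because these hosts carried several members each. Sequences are mature microRNAs from RefSeq on GRCm38.p6, written 5′ to 3′, and capitals mark the seed.

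mmu-miR-125b-5p: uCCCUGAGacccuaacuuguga

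mmu-miR-125b-1-3p: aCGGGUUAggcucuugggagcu

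mmu-miR-100-5p: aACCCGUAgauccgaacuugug

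mmu-let-7a-2-3p: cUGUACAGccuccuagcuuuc

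mmu-miR-31-5p: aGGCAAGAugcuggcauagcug

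mmu-miR-16-5p: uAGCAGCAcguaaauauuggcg

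mmu-miR-15a-5p: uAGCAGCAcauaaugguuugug

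Of these, mmu-miR-16-5p and mmu-miR-15a-5p, both inside Dleu2, share a seed, and the others each have their own. The mature arm mmu-miR-125b-5p lies at chr9:41581940-41581961 on the plus strand and its partner arm at chr9:41581980-41582001, both under the leading member peak.

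Mir100hg, the host of miR-100, let-7a-2 and miR-125b-1, held 16 members, of which 9 had a false discovery rate (FDR) of at most 0.05. The gene spans 239 kb of chromosome 9, from 41376526 to 41615185, on the plus strand. Its leading peak, chr9:41581259-41582009, was 751 bp long, with a fold of 9.70 over background, an FDR of 6.17e-18 and a pileup (the height of stacked signal) of 26. Fold and FDR here and below are the authors' values within the OSS_128167 list, and they describe each peak's strength in that list. This peak spans the whole Mir125b-1 hairpin, from 41581926 to 41582002. The next at this gene had folds of 5.35 (chr9:41600288-41601225, FDR 1.03e-05), 5.13 (chr9:41603662-41604250, FDR 2.32e-05) and 4.64 (chr9:41580843-41581103, FDR 4.47e-04).

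The members were unevenly placed along Mir100hg. The 103 kb next to its start held none. The 7 members between 103 and 156 kb from the start included 2 with an FDR of at most 0.05, while the 9 members between 202 and 230 kb included 7. Between the members of the far group lay 2 peaks that are too long for the rule. One was 2299 bp long (chr9:41582261-41584559) with a fold of 8.24, and the other was 15066 bp long (chr9:41584860-41599925) with a fold of 12.2 and an FDR of 1.09e-30. Members therefore flanked these 2 long peaks. The first of the long peaks began 205.7 kb from the gene start, just past the Mir125b-1 hairpin at 205.4 kb. The hairpin of Mir100 was 0.956 kb, and that of Mirlet7a-2 4.03 kb, from the nearest member, a peak of fold 3.31 whose FDR was 0.0710. Members covered 2.96% of Mir100hg and the long peaks 7.28%. The untreated list held 3 peaks in Mir100hg, covering 0.405% of it, each with an FDR of 1. All 3 lay inside the 15066 bp peak, which the length limit leaves out, and so none lay over a member. Gm51670, an unnamed lncRNA gene, also touches 2 of the members, and which of the genes the Pol II belonged to cannot be told apart without strand.

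**Figure D1:**
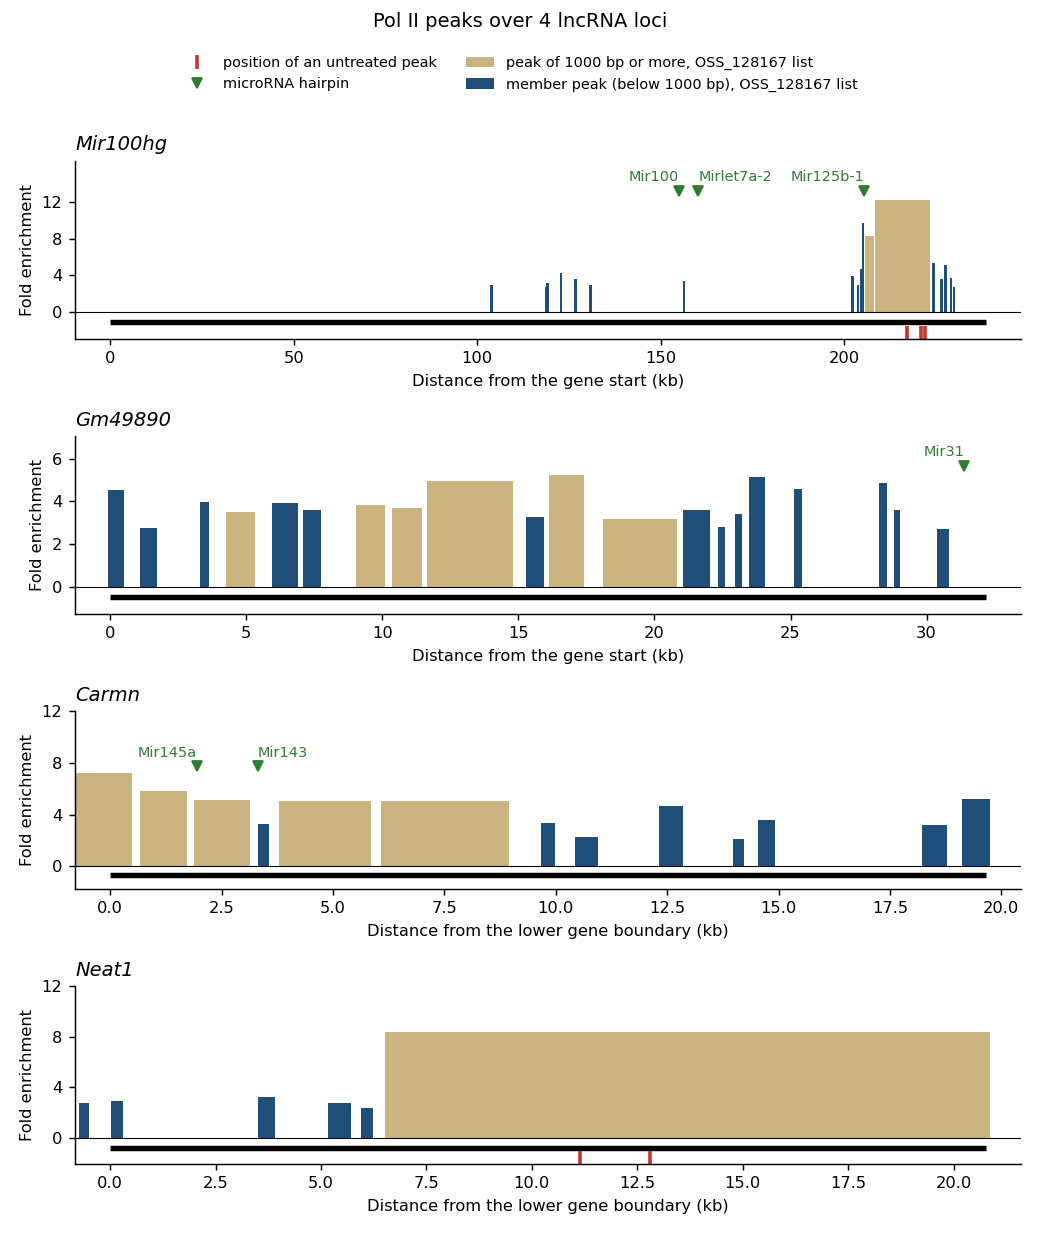
Peaks along Mir100hg, Gm49890, Carmn and Neat1, drawn to scale against distance (kb) from the gene start or, where the strand is not known, from the lower gene boundary; bar height is the authors' fold enrichment in the OSS_128167 list. Members (blue) stand beside peaks of 1000 bp or more (tan), hairpins are triangles, and red ticks give only the positions of untreated peaks; the bar of fold 9.70 in Mir100hg stands under the Mir125b-1 triangle.

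Gm49890, a gene of 32.2 kb on the minus strand of chromosome 4 from 88909854 to 88942042, had the highest density of members, 409 per Mb of eligible sequence, among the 38 genes with 6 or more. It contains the hairpin of miR-31. It held 14 members, 10 of them with an FDR of at most 0.05. No untreated peak lay in the gene. The highest had folds of 5.13 (chr4:88917977-88918583, FDR 2.32e-05), 4.84 (chr4:88913500-88913793, FDR 1.22e-04) and 4.58 (chr4:88916613-88916901, FDR 5.46e-04), and the lowest 2.71. Members covered 22.1% of the gene and 6 longer peaks another 32.4%, and a run of 8 members with no long peak between them lay towards the end that holds Mir31. The member nearest to the Mir31 hairpin lay 0.562 kb away, with a fold of 2.71 and an FDR of 0.377.

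Carmn, a lncRNA known from cardiac and smooth muscle cells and the host of Mir143 and Mir145a, held 8 members in 19.7 kb on chromosome 18. Of these, 3 had an FDR of at most 0.05, with folds of 5.24 (chr18:61664989-61665627, FDR 8.39e-07), 4.67 (chr18:61658202-61658731, FDR 4.06e-04) and 3.57 (chr18:61660424-61660805, FDR 0.0364). The strongest lay at the upper boundary of the gene. The Mir143 hairpin touched a member of fold 3.23 and FDR 0.159, and the Mir145a hairpin lay under a 1256 bp peak of fold 5.11. Longer peaks covered 39.3% of Carmn and members 16.9%. Its neighbour Bvht, at the lower end, had 3 of the long peaks and no member. There was no untreated peak in Carmn.

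Dleu2, the host of miR-15a and miR-16-1, held 6 members in 79.5 kb. The only one with an FDR of at most 0.05 (chr14:61625850-61626149) had a fold of 4.31 and an FDR of 0.00133, and it was also the member nearest to both hairpins, at 5.73 kb from Mir16-1 and 5.88 kb from Mir15a. Mir99ahg, named as the host of relatives of the Mir100hg microRNAs, held 8 members, none with an FDR of at most 0.05. Its highest fold was 3.17. No hairpin lies inside Mir99ahg as annotated here, so the count of hosts below does not include it. H19, an imprinted lncRNA and the host of Mir675, had 2 members, both with a fold of 1.87. Their FDRs were 0.966 and 0.408 and their pileups 11 and 24. The first covered the Mir675 hairpin. These genes thus held members of moderate or low fold beside the strong ones of Mir100hg.

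Across the table, 61 of the eligible lncRNA genes contain a microRNA, and 22 of them (36.1%) had a member. Among the other 8440 eligible genes 15.6% did. Counting only members with an FDR of at most 0.05, the shares became 9.84% (6 genes, exact interval 3.70 to 20.2) and 2.58%. Hosts are longer, with a median of 23.1 kb of eligible sequence against 10.1 kb. Per Mb of eligible sequence the hosts had 20.7 pairs of gene and member and the others 11.9. Mir100hg, Gm49890 and Carmn hold 16, 14 and 8 of the 78 pairs at hosts. Without these 3 genes the other 58 hosts had 11.5 pairs per Mb, near the 11.9 of the others, and 32.8% of them had a member. Of the 99 hairpins in all 61 hosts, 3 touched a member (Mir125b-1, Mir143 and Mir675) and 7 lay within 1 kb of one. A listed peak of any length was touched by 6, and the median distance to the nearest listed peak was 35.8 kb. No share was computed for other windows in the hosts. Whether hairpins differ from the rest of the host sequence was therefore not tested.

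Among lncRNAs that are widely transcribed, 5 of 7 eligible genes of the list had a member, and 4 had one with an FDR of at most 0.05. Over all eligible genes these shares were 15.7% and 2.63%. Norad, which binds Pumilio proteins, had the second strongest member of all (chr2:156388485-156389334), with a fold of 5.57, an FDR of 1.01e-07 and a pileup of 19. A second member there had a fold of 3.14 and an FDR of 0.0107, and both together covered 31.1% of its 4.92 kb. Gm14170 overlaps Norad and its reads cannot be told apart from those of Norad. Neat1, the scaffold of paraspeckles, had 5 members with folds of 2.39 to 3.28, of which 1 had an FDR of at most 0.05. Next to them lay a single peak of 14349 bp and fold 8.39, which covered 68.6% of the gene. Malat1, an abundant RNA of nuclear speckles, had 1 member over its promoter, with a fold of 2.96, an FDR of 0.00130 and a pileup of 25, and a peak of 9512 bp over 72.4% of the gene. At Neat1 and Malat1 the members thus lay beside a long peak over most of the gene. Norad also had a long peak, of 1454 bp, in its flank (chr2:156386503-156387956, fold 3.69, FDR 9.95e-04), which covered none of the gene itself. Pvt1, the neighbour of Myc, had 11 members over 222 kb, of which 1 had an FDR of at most 0.05, with a fold of 3.95. Lncpint had 6, all with a higher FDR. The untreated list held no peak in Norad, Malat1 or Pvt1, and 2 in Neat1, both with an FDR of 1 and both inside its long peak.

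**Figure D2:**
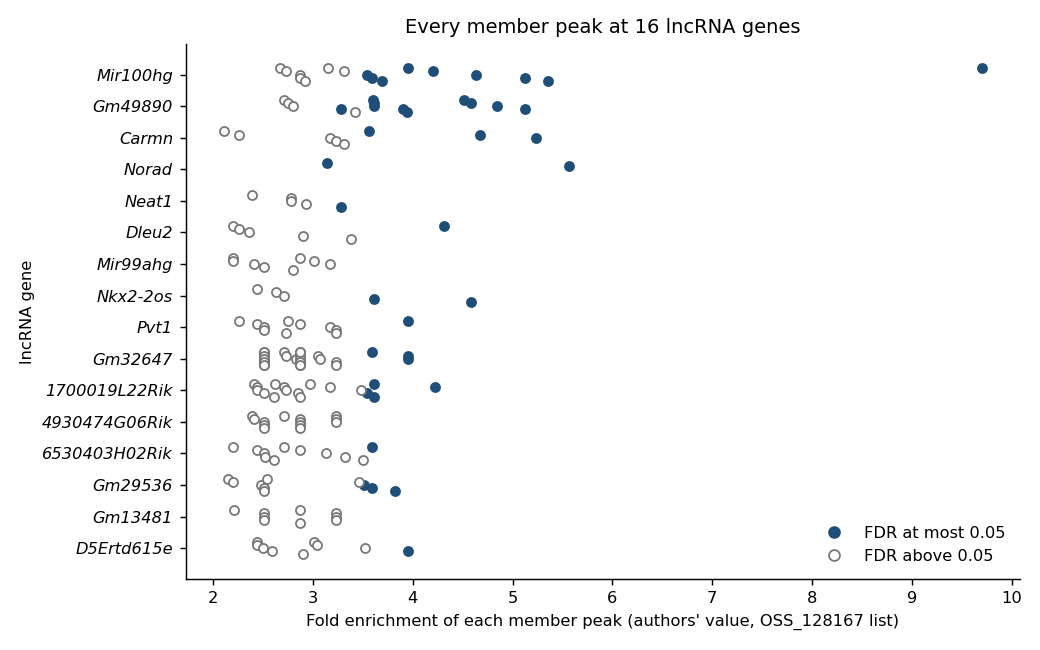
Fold enrichment (horizontal axis, authors' values in the OSS_128167 list) of every member at 16 lncRNA genes; filled points have an FDR of at most 0.05 and open points a higher one. Mir100hg, Gm49890, Carmn and Norad reach folds above 5, while Gm32647, with 28 members, stays below 4.

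The other lists were met less evenly. Of 8 eligible imprinted lncRNA genes, 3 had a member, and 2 had one with an FDR of at most 0.05: Airn, which silences its imprinted neighbours from the paternal allele (fold 3.84, FDR 0.00404), and Snhg14, the long transcript across the Ube3a domain (6 members, highest fold 3.95). Of 8 eligible hosts of small nucleolar RNAs, 3 had a member, with folds of 4.31 at Snhg4 (FDR 0.00133, within 1 kb of Snora74a), 4.21 at Snhg17 and 2.02 at Dancr. Of 18 eligible lncRNAs of the skeletal and mesenchymal list, 7 had a member and 3 had one with an FDR of at most 0.05, namely Mir100hg, Carmn and Malat1. Of 17 eligible neural and other-tissue lncRNAs, 7 had a member as well, and Nkx2-2os, antisense to a neural and islet transcription factor gene, reached a fold of 4.58 with an FDR of 5.46e-04, and Six3os1 one of 3.69. The other genes of these lists with a member, Mir670hg, Mir1a-1hg, Tbx3os1, Pax6os1, Sox2ot, Miat, Rmst and Otx2os1, had highest folds of 2.39 to 3.23 and no FDR of at most 0.05. Members were thus listed at lncRNAs of neural tissues as at those of mesenchymal ones. Over all eligible genes 15.7% had a member and 2.63% one with an FDR of at most 0.05. Several listed genes are long: Nkx2-2os had 132 kb of eligible sequence, Pax6os1 129 kb and Mir100hg 241 kb, but Six3os1 only 7.68 kb. Of all genes with 100 to 300 kb, 80.3% had a member. The part of length in the counts of these lists was not tested. The lists overlap, since Mir100hg, Mir99ahg, Carmn, H19, Malat1 and Dancr each stand in 2 of them.

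The remaining members among the strongest lay at genes of unassigned function. Gm41393 on chromosome 15 had a member of fold 5.03 (chr15:97396093-97396397, FDR 6.36e-05), and Gm5833 on chromosome 1 a single member of fold 4.52 (chr1:138652351-138652583, FDR 3.83e-04). Of the 1337 genes with a member, 1280 have only a placeholder symbol (Gm, Rik or LOC) and 57 a given name. The densest genes with at least 3 members were Gm26615, with 607 per Mb of eligible sequence, and Gm46070, with 466. Gm26615 had 3 members in 4.94 kb and none with an FDR of at most 0.05. Next came Gm49890 (409), LOC108167564 (376) and Carmn (369). These densities rest on 3 to 14 peaks each and 151 genes had at least 3.

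Most members were weak peaks. Over all 2059 the fold ran from 1.85 to 9.70 with a median of 2.87 (quartiles 2.52 and 3.23), 45 exceeded 4 and 7 exceeded 5. Lengths ran from 226 to 998 bp with a median of 268, and 631 members had the shortest length. Fold took only 336 distinct values, and 256 members shared the commonest, 2.87. An FDR of at most 0.05 was reached by 255 members (12.4%, exact interval 11.0 to 13.9), where 14.8% of all autosomal peaks below 1000 bp in that list reached it, and an FDR of at most 1e-05 by 3. Those 255 members lay at 224 genes (2.63% of the eligible ones), 23 of which had at least 2. Mir100hg and Gm49890 alone held 19 of the 255.

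Set beside other positions in the same list, the members resembled peaks far from genes more than peaks at coding genes. An FDR of at most 0.05 was reached by 27.0% of 3070 peaks at coding gene ends (interval 25.4 to 28.6), 14.3% of 15907 inside coding genes (13.8 to 14.9) and 11.5% of 13451 more than 5 kb from every gene (11.0 to 12.1). The members' interval overlaps the last of these, only narrowly the second, and lies below the first. Median folds were 2.93 at coding ends and 2.87 in both other classes. Per Mb, peak centres numbered 12.1 (exact Poisson interval 11.6 to 12.6) over the 170.2 Mb of eligible lncRNA sequence, 13.4 (13.2 to 13.6) far from every gene, 17.1 (16.9 to 17.4) inside coding genes and 35.2 (33.9 to 36.6) at coding ends. With an FDR of at most 0.05 they numbered 1.50, 1.55, 2.48 and 9.51 per Mb. The sequence of lncRNA genes away from coding genes therefore carried slightly fewer listed peaks per Mb than intergenic sequence, and about as many with a low FDR. These intervals cover counting error only, and neighbouring peaks are not independent.

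**Figure D3:**
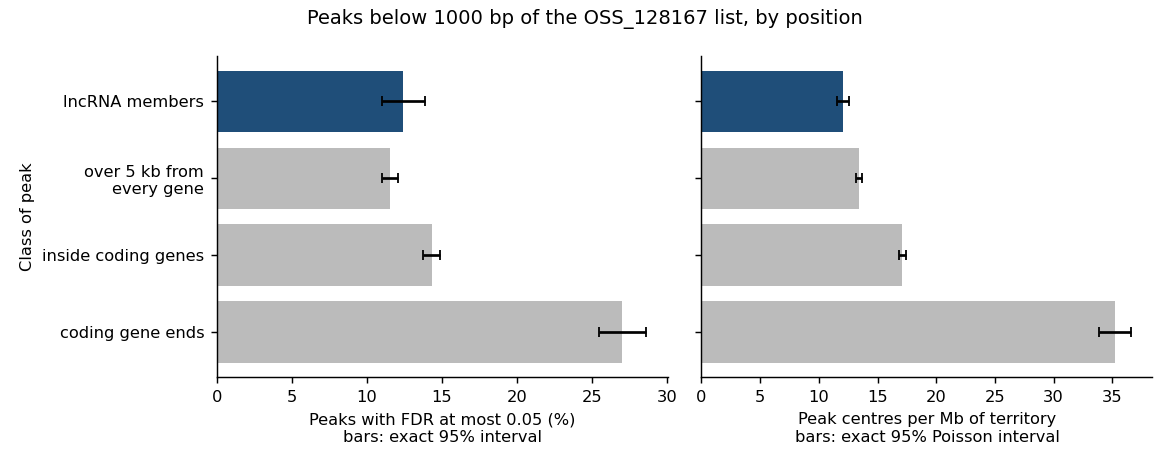
Share of peaks with an FDR of at most 0.05 (left, %, exact 95% intervals) and peak centres per Mb of territory (right, exact 95% Poisson intervals) for 4 classes of peak below 1000 bp in the OSS_128167 list. The lncRNA members, at 12.4% and 12.1 per Mb, stand near the peaks far from every gene and below those at coding gene ends (27.0% and 35.2 per Mb).

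The number of members in a gene rose with its length. Of the 1337 genes, 959 had 1 member, 227 had 2, 113 had 3 to 5, and 38 had 6 or more and held 323 members. Genes with a member had a median length of 30.9 kb, and eligible genes without one 8.65 kb. Of genes with under 10 kb of eligible sequence 5.48% had a member, of those with 10 to 30 kb 14.9%, with 30 to 100 kb 39.6%, and with 100 to 300 kb 80.3%. Of 24 genes with 300 kb or more 87.5% did. The density changed far less, from 11.3 pairs of gene and member per Mb below 10 kb to 10.3, 11.6, 14.7 and 16.1 in the longer bins. Spearman's rho between members and eligible length was 0.379 over 8501 genes, given as a description, since the count can only grow with length and many genes overlap.

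The genes with the most members were therefore mostly the longest. Gm32647, at 1284 kb, held 28 members, or 21.8 per Mb, of which 3 had an FDR of at most 0.05, and 1700019L22Rik, at 800 kb, held 17, or 21.2 per Mb, of which 4 did. The 13 members of 4930474G06Rik spread over 438 kb, the 11 of 6530403H02Rik over 432 kb and the 9 of Gm13481 over 395 kb, and none of 4930474G06Rik or Gm13481 had an FDR of at most 0.05. Mir100hg is shorter than all of these and had 66.5 members per Mb. Members covered 0.643% of Gm32647, against 22.1% of Gm49890.

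**Figure D4:**
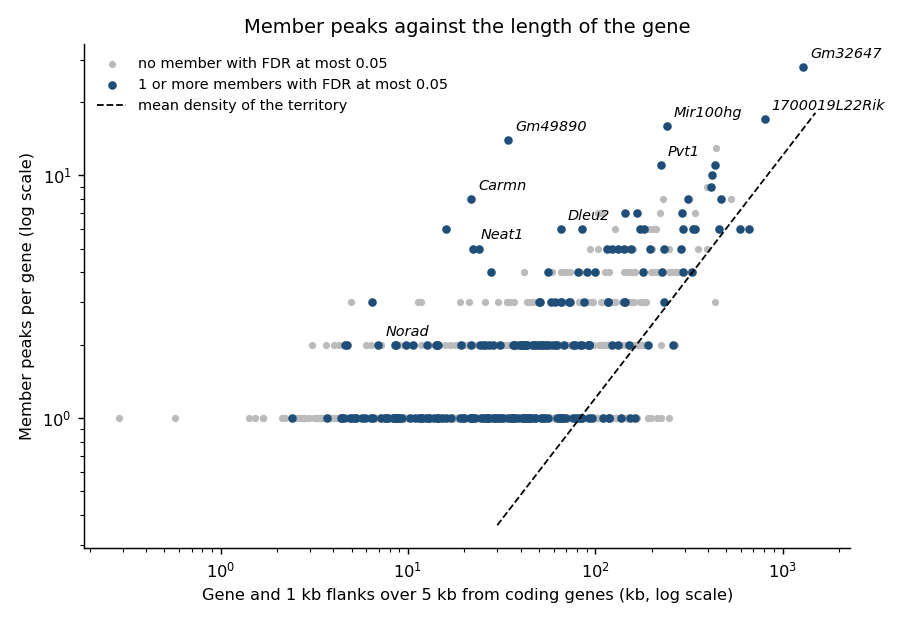
Member peaks per lncRNA gene against its eligible sequence in kb (gene plus 1 kb flanks, more than 5 kb from coding genes), both on log scales, 1 point per gene with a member (blue where a member had an FDR of at most 0.05), and the mean density of 12.1 per Mb dashed. Gm32647 (28 members) lies among the longest genes, whereas Gm49890 (14) and Carmn (8) carry many members for their length.

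Along genes of known strand, members did not gather at the start. Within 1 kb of the start there were 98 peak centres, or 9.29 per Mb (exact Poisson interval 7.54 to 11.3), and from 1 to 10 kb inside 423, or 10.9 per Mb (9.91 to 12.0). At the far end the values were 9.46 per Mb within 1 kb and 10.8 per Mb from 1 to 10 kb inside. With an FDR of at most 0.05 there were 8 centres within 1 kb of a start (0.758 per Mb) and 55 from 1 to 10 kb inside (1.42 per Mb). The intervals of start and interior overlap. Of all members 305 (14.8%, interval 13.3 to 16.4) reached within 1000 bp of either boundary of their gene, and of the 255 with an FDR of at most 0.05, 29 did (11.4%, 7.75 to 15.9). Inside the gene itself lay 1953 members, and 106 only in the flanks.

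**Figure D5:**
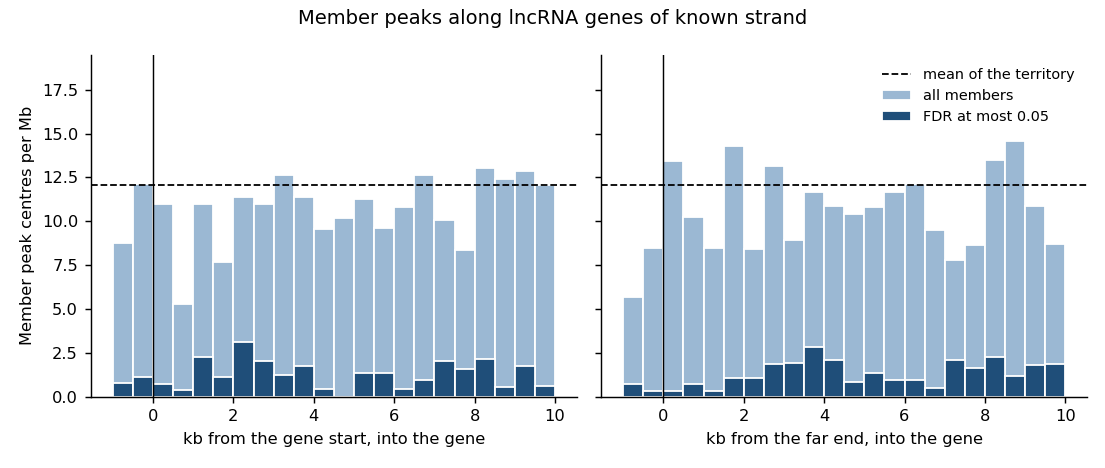
Member peak centres per Mb in bins along lncRNA genes of known strand, by distance in kb from the gene start (left) and from the far end (right), with the mean of the whole territory, 12.1 per Mb, as a dashed line. No bin at the start stands out, and within 1 kb of the start the density was 9.29 per Mb.

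Annotated promoters of lncRNA genes were also compared with the members, in eligible sequence that held 12.1 peak centres per Mb on average. No share was computed for other windows of the same length. Whether promoters differ from the rest of the eligible sequence was therefore not tested. Of 6494 RefSeq promoter windows (250 bases before to 50 after a start) in the eligible sequence, 48 (0.739%, interval 0.545 to 0.979) overlapped one, at 46 genes. Only 3 of the 48 overlapped a member with an FDR of at most 0.05, those of Gm49890, Malat1 and 1700010L04Rik. The first pair is printed because the peak lies over the start itself, 5′ to 3′ in the direction of the gene, with capitals for the bases under the member peak.

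Gm49890 promoter: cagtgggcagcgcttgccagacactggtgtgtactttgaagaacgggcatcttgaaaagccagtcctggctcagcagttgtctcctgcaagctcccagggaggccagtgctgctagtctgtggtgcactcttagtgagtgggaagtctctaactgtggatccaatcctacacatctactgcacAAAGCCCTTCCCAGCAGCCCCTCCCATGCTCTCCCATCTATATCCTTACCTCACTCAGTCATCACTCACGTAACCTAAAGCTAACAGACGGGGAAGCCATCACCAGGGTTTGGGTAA

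Malat1 promoter: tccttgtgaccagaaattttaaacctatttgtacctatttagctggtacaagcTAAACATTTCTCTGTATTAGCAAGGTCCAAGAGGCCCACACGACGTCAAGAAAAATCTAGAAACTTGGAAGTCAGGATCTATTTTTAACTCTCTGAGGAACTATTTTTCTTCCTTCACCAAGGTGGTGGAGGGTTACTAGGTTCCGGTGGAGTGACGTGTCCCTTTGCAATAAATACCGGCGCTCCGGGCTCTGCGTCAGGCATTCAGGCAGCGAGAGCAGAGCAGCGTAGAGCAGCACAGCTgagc

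Both come from RefSeq on GRCm38.p6. The window of Gm49890 is chr4:88941993-88942292 on the minus strand, and 117 of its bases lay under a member of fold 4.52 and FDR 3.83e-04. The window of Malat1 is chr19:5802623-5802922, also on the minus strand, and 243 of its bases lay under the member of fold 2.96. At Gm49890 the member begins just upstream of the start and runs into the gene, and at Malat1 it covers most of the upstream sequence. At 1700010L04Rik 14 bases lay under a peak of fold 3.59.

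Promoters at a member were close to the rest in composition. Their median GC content was 46.5% against 46.7% for all windows, and the median ratio of observed to expected CpG was 0.203 against 0.209. Searched on both strands were 5 motifs. The TATA box motif TATAAA occurred in 18.8% of the 48 and in 17.3% of all 6494. The motif of AP-1, a factor of Fos and Jun proteins, is TGANTCA and occurred in 12.5% and 10.6%. The core bound by Runx factors is TGTGGT and occurred in 18.8% and 21.6%. The Sp1 motif GGGCGG occurred in 4.17% and 8.65%, and the NF-Y motif CCAAT in 37.5% and 38.0%. With 48 windows the exact interval for TGTGGT ran from 8.95% to 32.6%, so a difference of these sizes was not detectable. In the printed windows the Runx and NF-Y motifs were found at Gm49890 and none of the 5 at Malat1. Both matches at Gm49890 lie outside the bases under the member peak. A match is a match of letters only.

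Members at different distances from coding genes had similar shares of low FDR. They lay between 5016 bp and 2190 kb from the nearest coding gene, with a median of 99.8 kb. The share with an FDR of at most 0.05 was 14.3% of 364 members at 5 to 20 kb (interval 10.9 to 18.3), 13.8% of 666 at 20 to 100 kb, 11.1% of 785 at 100 to 500 kb, and 9.84% of 244 beyond (6.40 to 14.3). These intervals overlap. Of 60 coding genes of bone matrix and osteoblast regulation, 19 were the nearest coding gene of 52 members, 5 of which (9.62%) had an FDR of at most 0.05, against 12.4% of all members. Over all autosomal coding genes 5.39% were nearest to a member. Being the nearest coding gene does not mean being close. The closest member lay 844 kb from Cdh11, 296 kb from Tcf4 and 54.4 kb from Myc, but 5.15 kb from Ccn1. The part of the width of the surrounding gene-free sequence was not tested. The listed genes included Myc, a growth regulator, with 12 that include those of Pvt1, Cdh11, an osteoblast cadherin, with 6, and Ccn1, a matricellular gene, with 5 at Gm17501, the highest of fold 4.10.

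Members near long peaks more often had a low FDR. Within 5 kb of a peak of 1000 bp or more lay 37 members, and 21 of them (56.8%, interval 39.5 to 72.9) had an FDR of at most 0.05, against 234 of the other 2022 (11.6%, 10.2 to 13.0). Without Mir100hg and Gm49890 the share near long peaks was 7 of 18 (38.9%, 17.3 to 64.3). Most members had no other member close by: of 2040 pairs of adjacent members 191 were within 5 kb, and the median gap was 233 kb. These gaps were measured between members only, and other listed peaks can lie within them. By chromosome the density ran from 8.66 to 15.6 members per Mb of eligible sequence, except on chromosome 13, where 37 members gave 3.30 per Mb. Other annotated genes lay within 1 kb of 50 members, most often pseudogenes (24 pairs), T-cell receptor and immunoglobulin loci (11), microRNAs (9) and small nucleolar RNAs (4).

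Peaks just inside and just outside the limits of the rule differed in no single direction. The longest member, 998 bp at Gm49890, had a fold of 3.61, and the shortest peak left out by length, 1043 bp at Carmn, one of 5.80. The member nearest to a coding gene, 5016 bp away at 9630028B13Rik, had a fold of 2.71, and the nearest left out, at 4973 bp, one of 3.59. At the edge of the flank the folds were 3.59 inside, at 998 bp from Gm36536, and 2.87 outside, at 1005 bp from Gm40272.

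Few members had a counterpart in the untreated list. That list held 1694 peaks, of which 1603 were autosomal and below 1000 bp, and 87 of these (5.43%, interval 4.37 to 6.65) met the same rule, at 72 genes. The share is close to the 5.23% of the OSS_128167 list, although the lists differ in length. Of the 87, 74 had an FDR of 1 and 4 one of at most 0.05, where 6.11% of the untreated autosomal peaks below 1000 bp had one. Overlap by at least 1 bp was found for 3 members (0.146%, interval 0.0301 to 0.425), against 0.15% of all autosomal peaks below 1000 bp. They lay at Gm51794 (OSS_128167 fold 2.63), E130307A14Rik (2.12) and Gm9732 (2.71). None had an FDR of at most 0.05 in either list. Within 1000 bp of an untreated peak lay 6 members. Of the genes, 30 had a peak meeting the rule in both lists, which is 2.24% of the 1337 and 41.7% of the 72. Over all eligible genes 15.7% had a member. The 30 included Neat1, Rmst and Gm26680, and their lengths ran from 4.21 kb (Gm31267) to 253 kb (Gm1604a). Longer genes more often had a member, and the part of length in this overlap was not tested. Since the depth of neither library is known, a gene without an untreated peak is not shown to lack Pol II there.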

How the data were processed

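Pol II ChIP-seq and input libraries were made from primary mouse osteoblasts, 1 of each per condition. The submitters' processing notes name fastp, BWA and the build mm10. For the peak caller, its thresholds and the use of the inputs nothing is stated (not given in the sources used here). Per the file headers, the columns of each list hold position, length, pileup (a signal height), p-value, fold enrichment (a ratio) and FDR, all computed by the authors within 1 list. They were used to describe and filter peaks of that list only. The lists hold no read totals, so depth is unknown.

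Peaks were intersected with the RefSeq gene table of GRCm38.p6 (12731 lncRNA and 21896 protein-coding genes), counted from position 1, with an overlap of at least 1 bp. Eligible sequence was lncRNA genes with 1000 bp flanks, outside coding genes extended by 5000 bp. Density counts peak centres. Read strand is not given. The gene table has no strand, so strand and starts came from the RefSeq promoter windows, which matched 6439 of the 8501 eligible genes. Promoter and microRNA base sequences of chromosome 18 are not used here, but its peaks are, with 119 members counted. No genome was used.

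The members, the gene lists and the rule for naming genes were chosen with earlier results of these data known. Genes were named if they held one of the 15 members of highest fold, were among the 10 with most members, stood in a list and held a member, or held a member overlapping an untreated peak. Other named genes were chosen after their values were seen. Intervals are exact 95% Clopper-Pearson or Poisson intervals for counting error only. With 1 library per condition no test was run. Tested on simulated data, the selection recovered 158 of 158 members among 1500 peaks and 300 genes. Software was Python 3.11.15 with scipy 1.17.1, pandas 2.3.3 and numpy 2.4.6, and matplotlib 3.10.9 for plots.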

Additional observations from a re-analysis of the deposited data

How the results depend on the processing

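Of 86 recomputed values, 66 moved by less than their counting interval or by under 1.5 times for counts, and 20 moved. The share of members at a lncRNA gene end, 14.8%, became 9.68% with no flank, 12.0% with a flank of 5000 bp, 17.1% with a coding distance of 1000 bp, 9.13% with a gene-end window of 500 bp and 20.9% with one of 2000 bp. The density of members, 12.1 per Mb, became 12.8 per Mb at a coding distance of 1000 bp. With only the strongest peak of each gene there were 1288 members, of which 16.6% had an FDR of at most 0.05 and 20.3% lay at a gene end, at 7.52 per Mb. With only members of FDR at most 0.05 there were 255 members at 224 genes, with a median fold of 3.64, 11.4% at a gene end, 1.50 per Mb and 0% overlapping an untreated peak (exact upper bound 1.44%), and 4 untreated peaks met the rule. An FDR of at most 1e-05 was reached by 0.146% of members. The windows, flanks and filters change these values by their construction. Without Mir100hg and Gm49890, an alternative chosen after the data were seen, 2029 members remained and 11.6% had an FDR of at most 0.05, and the share near long peaks became 38.9%. Without these and Carmn, also chosen after the data were seen, microRNA hosts had 11.5 pairs per Mb. No paired analysis was possible because each condition has 1 Pol II library. Depth, read strand and the use of the inputs are unknown, and the fold and FDR of weak peaks take few distinct values.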

Other observations

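Peaks of 1000 bp or more that met every other condition of the rule numbered 26, at 15 lncRNA genes, of which 9 also held members. By fold the first and the third were peaks at Gm40527, with 22.2 and 11.0, and between them stood the long peak of Mir100hg with 12.2. Lncppara, which holds the hairpins of Mirlet7b and Mirlet7c-2, lay for 82.6% of its 3.75 kb under long peaks, the strongest of 4391 bp with a fold of 6.75 and an FDR of 1.54e-10 over both hairpins, and it held no member. Snhg5, a host of small nucleolar RNAs, had long peaks of fold 8.21 and 2.93, and Tug1 one of 3.17, again with no member.

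On the sex chromosomes, which the rule leaves out, 17 peaks on X and 2 on Y met its other conditions, none with an FDR of at most 0.05, and the highest fold was 3.23 on X. Among the untreated peaks that met the rule the highest fold was 5.29, at Gm30417, with an FDR of 1.55e-11.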
